A study of Mus musculus with 14 samples.

Results

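T cell transcripts were followed here in dendritic cells (DCs) sorted from mouse lymph nodes, as 33 genes named one by one for their known role in T cells. All 33 are among the 23420 gene symbols of the count table, and each is described below in 14 libraries of 150 sorted cells. The libraries belong to a study of cell contacts by LIPSTIC, in which sortase A on one cell moves a biotinylated peptide onto a pentaglycine (G5) tag on a touching cell. In the biotin-positive group (6 libraries) and the biotin-negative group (6 libraries) the recipients were C57BL/6 mice of the genotype G5-Cd40+/+. They received 500000 peptide-pulsed DCs with the tagged Cd40 allele per footpad. At 18 hours after the DCs they received 300000 OT-II CD4+ T cells, which recognise an ovalbumin peptide and carry sortase on CD40 ligand (CD40lgSrtA/Y) together with CD4-Cre. Popliteal nodes were taken 48 hours after the T cells, with the biotinylated substrate (300 nmol in each footpad) injected from hour 46. The Cd40-null group (2 libraries) came from Cd40-/- mice. Both the DCs and the OT-II T cells that these mice received were wild type, so host genotype and transferred cells changed at once relative to the other groups. In all groups the sequenced cells were endogenous DCs of the recipient, sorted as MHC-II high, CD11c+, CD11b+ and XCR1-. Since the labels do not say that each library is a mouse of its own, the p-values reflect only how far these samples spread, which may be technical.

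A mature T cell recognises peptide on MHC molecules through its receptor, whose surface expression and signalling depend on the CD3 chains. The kinase LCK phosphorylates these chains, ZAP-70 docks on them, and the adaptor LAT passes the signal on. Several other genes of the list are not exclusive to T cells. CD25, the α chain of the interleukin-2 receptor encoded by Il2ra, is carried by activated T cells, by regulatory T cells and by mature DCs. In mice, CD4 and the α chain of CD8 are found on subsets of DCs as well as on T cells.

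The promoter of Il2ra is shown because Il2ra was the only gene of the 33 to pass the test between the biotin groups. That of Cd3e, a defining T cell gene, stands beside it. Both are RefSeq sequences of GRCm38.p6, 5′ to 3′ on the strand of the gene, and cover the 250 bases before the start. Capitals mark matches to the κB consensus of NF-κB, searched on both strands, with overlapping matches joined.
Il2ra: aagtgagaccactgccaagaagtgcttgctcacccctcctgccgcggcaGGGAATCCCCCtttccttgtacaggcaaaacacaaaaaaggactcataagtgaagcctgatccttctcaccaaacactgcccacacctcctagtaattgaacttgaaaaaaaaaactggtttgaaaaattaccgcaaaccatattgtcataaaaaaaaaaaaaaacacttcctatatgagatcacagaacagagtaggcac
Cd3e: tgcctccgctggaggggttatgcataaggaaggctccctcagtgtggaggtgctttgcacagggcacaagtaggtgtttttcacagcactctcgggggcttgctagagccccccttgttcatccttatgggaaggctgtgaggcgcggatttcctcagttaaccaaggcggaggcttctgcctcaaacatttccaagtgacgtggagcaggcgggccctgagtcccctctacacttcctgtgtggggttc
The Il2ra window is chr2:11642542-11642791 on the plus strand and the Cd3e window is chr9:45009612-45009861 on the minus strand. The Il2ra window held 2 overlapping matches, the first running from 201 to 192 bases before the start, and the Cd3e window held 0. The motif was in 1281 of 32851 promoters of this length (3.9%). Of the 33 genes, 22 had a promoter in the table, with 30 promoters among them, and 1 of these 30 (3.33%) held it. A match describes the letters of the window and not a bound site.

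Total counts ran from 1.45e+07 to 3.33e+07 per library. Of 12 DC genes listed, all were tested, and edgeR called 1 higher and 4 lower in biotin-positive than in biotin-negative libraries. Over all 14217 genes tested, 3.70% were called higher and 4.05% lower. DESeq2 called 7 of the 12 DC genes and limma voom called 6, with Flt3 called by both of these tools but not by edgeR. Flt3, the receptor of a DC growth factor, averaged 1015 ± 87.6 CPM in the biotin-positive group, 849 ± 89.0 CPM in biotin-negative and 828.6 ± 92.3 CPM in Cd40-null libraries (SD, n = 6, 6 and 2). Zbtb46, a transcription factor of conventional DCs, averaged 189 ± 40.3 CPM in the biotin-positive group, 161 ± 28.4 CPM in biotin-negative and 182 ± 34.7 CPM in Cd40-null libraries. Here and below, CPM is the count scaled to a common library total after TMM scaling. Cd40, the targeted gene, averaged 1062 ± 163 CPM in the biotin-positive group and 511 ± 78.7 CPM in the biotin-negative group, against 74.2 and 53.3 CPM in the Cd40-null libraries. The 4 lower DC genes encode CD11b, CD11c and MHC class II proteins, which the sort gate used, and the MHC class II invariant chain. Itgam, which encodes CD11b, averaged 1.91 ± 2.38 CPM in the biotin-positive group, with 1 count in its lowest library, and 25.3 ± 21.3 CPM in the biotin-negative group, with 18.3 and 11.2 CPM in Cd40-null replicates 1 and 2 (SD, n = 6 each; biotin-positive over biotin-negative log2 -3.76, SE 0.89, adjusted p = 0.0145). Itgax, which encodes CD11c, averaged 55.5 ± 5.71 CPM in the biotin-positive group and 139 ± 55.4 CPM in the biotin-negative group (log2 -1.32, SE 0.21, adjusted p = 0.00069). H2-Ab1, an MHC class II chain, was 5.42-fold lower and Cd74, the invariant chain, 2.98-fold lower in the biotin-positive group. The higher gene, Fscn1, encodes fascin, an actin-bundling protein of mature DCs. These changes stood beside the fall of Il2ra in the same libraries, and their part in it was not tested. One library stood apart for T cell genes. Cd40-null replicate 1 had the highest level of all 14 libraries for 17 of the 33 genes (51.5%), as against 6.97% of the 14217 genes tested. Tests against the Cd40-null group are given below with and without it.

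**Figure D1:**
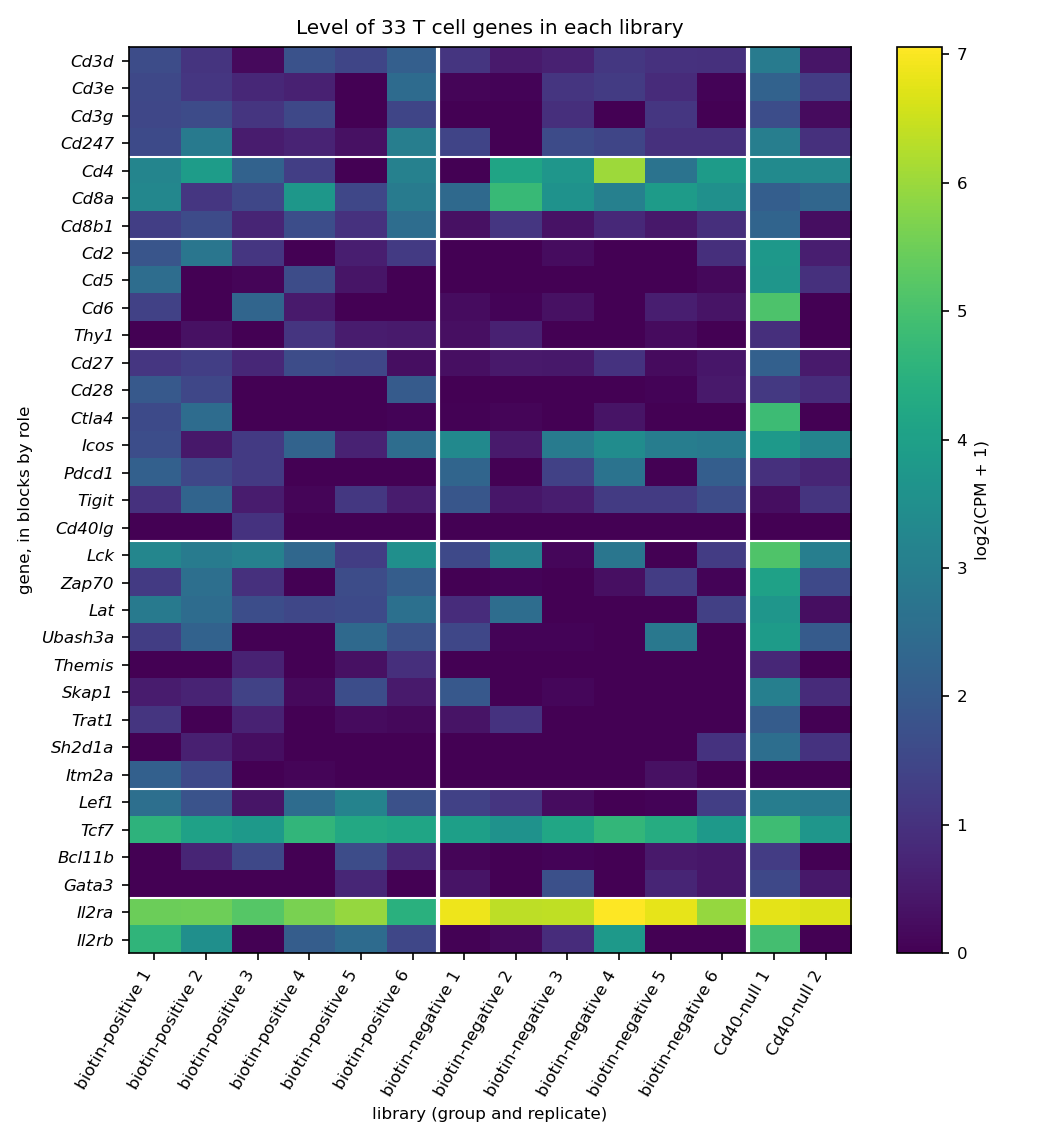
Level of each of the 33 genes (rows, in blocks by role) in each of the 14 libraries (columns, by group), as log2(CPM + 1). The Il2ra row is bright throughout and brighter in biotin-negative and Cd40-null than in biotin-positive libraries, the Tcf7 row is even, and the column of Cd40-null replicate 1 is the brightest for 17 genes.

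The genes of the CD3 complex were read in every group at a few CPM or less. Cd3d, which encodes the δ chain, had counts in all 14 libraries. Its lowest, median and highest levels were 0.131, 1.93 and 3.40 CPM in the biotin-positive group and 0.436, 0.998 and 1.22 CPM in the biotin-negative group, against 6.60 and 0.310 CPM in Cd40-null replicates 1 and 2. Cd3e, for the ε chain, ran over 0, 0.943 and 4.49 CPM in the biotin-positive group and 0.0397, 0.445 and 1.34 CPM in the biotin-negative group, with 3.62 and 1.39 CPM in the Cd40-null pair. For both genes the biotin groups overlapped, and the Cd40-null pair lay on either side of the biotin-positive median for Cd3d. Cd3g, for the γ chain, was at 0 in 1 of 6 biotin-positive and in 4 of 6 biotin-negative libraries. Its lowest, median and highest levels were 0, 1.81 and 2.08 CPM in the biotin-positive group and 0, 0 and 1.18 CPM in the biotin-negative group, with 2.17 and 0.155 CPM in the Cd40-null pair. Cd247, for the ζ chain, had 0.248, 1.31 and 7.17 CPM in the biotin-positive group and 0, 1.34 and 2.06 CPM in the biotin-negative group, with 7.12 and 0.981 CPM in the Cd40-null pair. The Cd247 medians of the biotin groups were nearly the same, and biotin-positive replicates 2 and 6 were the high ones.

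None of the 4 CD3 genes passed the test between the biotin groups. The log2 fold changes, biotin-positive over biotin-negative, were 1.03 (SE 0.85, adjusted p = 0.571) for Cd3d and 1.35 (SE 1.19, adjusted p = 0.607) for Cd3e. They were 2.03 (SE 1.54, adjusted p = 0.528) for Cd3g and 1.17 (SE 1.03, adjusted p = 0.606) for Cd247. Summed over the 4 genes, the level was 2.01, 6.64 and 16.9 CPM (lowest, median, highest) in the biotin-positive group and 0.476, 3.44 and 4.68 CPM in biotin-negative libraries, against 19.5 and 2.84 CPM in the Cd40-null pair. This sum rested on 37 to 327 counts per biotin-positive library, on 12 to 100 per biotin-negative library, and on 485 and 55 in the Cd40-null pair. In libraries of pooled cells, fewer cells of a type and less RNA per cell cannot be told apart. Cd3g, Cd3d and Cd3e lie side by side on chromosome 9, with 1.4 kb between Cd3g and Cd3d and 11.4 kb between Cd3d and Cd3e. At 0 Cd3g counts, biotin-negative replicates 1, 2, 4 and 6 still had Cd3d at 0.436 to 1.22 CPM.

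**Figure D2:**
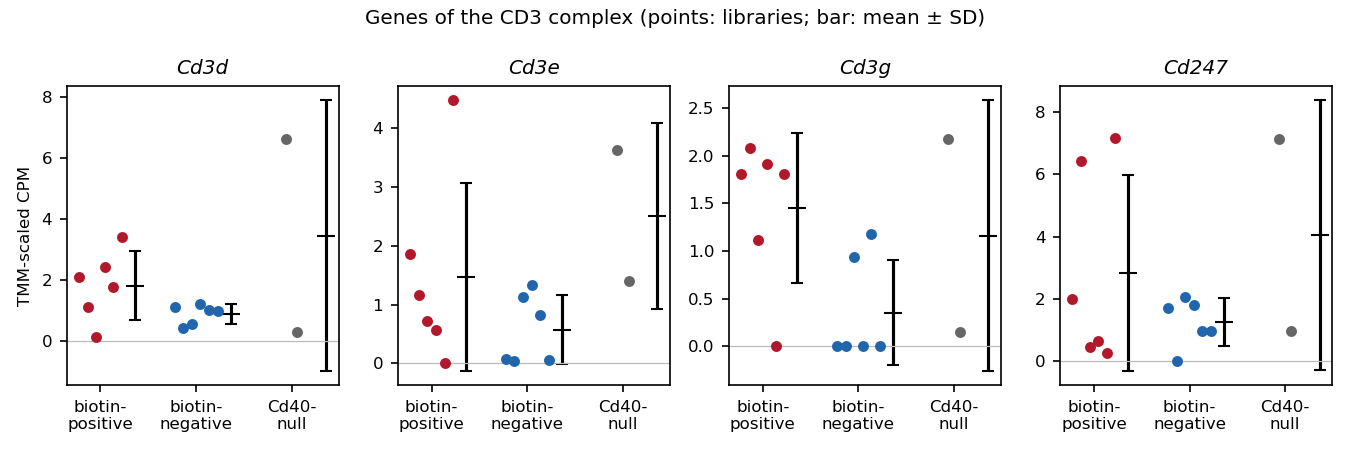
TMM-scaled CPM of the 4 genes of the CD3 complex, 1 point per library, with the mean and SD of each group as a bar beside the points. The biotin-positive and biotin-negative points overlap in each panel, and the upper Cd40-null point in each panel is replicate 1.

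Il2ra was lower in biotin-positive than in biotin-negative libraries. The gene lies on chromosome 2 at 11642807 to 11693193 (mm10). Its lowest, median and highest levels were 21.4, 43.8 and 60.8 CPM in the biotin-positive group and 59.9, 96.0 and 132 CPM in the biotin-negative group, against 108 and 102 CPM in the Cd40-null pair. Only the highest biotin-positive library (replicate 5) reached above the lowest biotin-negative library (replicate 6), and every Cd40-null value was above every biotin-positive one. The means were 42.3 ± 13.2 CPM in the biotin-positive group and 96.7 ± 26.8 CPM in the biotin-negative group (SD, n = 6 each), which is 2.28-fold lower in the biotin-positive group (log2 -1.19, SE 0.22, adjusted p = 0.00295). Against the Cd40-null mean of 104.6 ± 4.42 CPM (SD, n = 2) the biotin-positive level was 2.47-fold lower (log2 -1.31, SE 0.29, adjusted p = 0.0264). That second call was lost without Cd40-null replicate 1 (adjusted p = 0.231), without Cd40-null replicate 2 (adjusted p = 0.143) and without biotin-positive replicate 3 (adjusted p = 0.0534), although the log2 fold change stayed between -1.44 and -1.17 in all alternatives run. Biotin-negative and Cd40-null libraries differed by -0.11 (log2, SE 0.31, adjusted p = 0.966), which is no call, and by -0.07 without Cd40-null replicate 1 (adjusted p = 0.987). The Cd40-null values of Il2ra lay close together.

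Il2rb, the β chain that interleukin-2 and interleukin-15 receptors share, was more uneven between libraries than Il2ra. It was at 23.8, 10.4, 0, 3.26, 4.58 and 1.86 CPM in biotin-positive replicates 1 to 6. In biotin-negative replicates 1 to 6 it was at 0.0357, 0.119, 0.843, 13.0, 0 and 0 CPM, and in the Cd40-null pair at 29.9 and 0 CPM. Each group thus held libraries at or near 0 and libraries at 10 CPM or more, and the adjusted p between the biotin groups was 0.632.

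Per kilobase of exon, Il2ra had the highest mean level of the 33 genes in all 3 groups, at 8.12 CPM per kb in biotin-positive, 18.6 in biotin-negative and 20.1 in Cd40-null libraries. Tcf7 came next in the biotin groups, at 6.98 CPM per kb in the biotin-positive group and 6.39 in biotin-negative libraries. In Cd40-null libraries the mean of Lck (8.79) stood between those of Il2ra and Tcf7 (7.70). That order came from Cd40-null replicate 1 (Lck 14.5 and Tcf7 10.8 CPM per kb). Replicate 2 had the reverse (Lck 3.075 and Tcf7 4.62). The library ranges of Il2ra and Tcf7 overlapped in the biotin-positive group and did not in the biotin-negative group. After Tcf7 the order in biotin-positive libraries was Lat (2.99) and Lck (2.78), whereas in biotin-negative libraries it was Cd4 (5.97), Cd8a (3.90) and Icos (1.91). Cd4 ran from 0 to 20.5 CPM per kb in biotin-negative libraries, with replicate 4 the highest.

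Tcf7, a transcription factor of naive and memory T cells that is also used in other blood cells, was the steadiest gene after Il2ra. It had 12.8, 17.5 and 24.2 CPM in the biotin-positive group and 11.1, 15.9 and 24.7 CPM in the biotin-negative group (lowest, median, highest), with 28.3 and 12.1 CPM in the Cd40-null pair. The biotin groups covered the same range (adjusted p = 0.867). Its biological coefficient of variation, the replicate spread that edgeR fits, was 0.341, and that of Il2ra was 0.279. Over the 32 genes tested the median of this spread was 1.63, against 0.441 over all genes tested.

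None of the 3 co-receptor genes passed the test. Cd4 had 0, 5.57 and 13.97 CPM in the biotin-positive group and 0, 12.9 and 63.6 CPM in the biotin-negative group, with 9.37 and 9.09 CPM in the Cd40-null pair. The biotin-negative high value was 1 library, replicate 4, and biotin-positive replicate 5 and biotin-negative replicate 1 were at 0 (log2 -1.68, SE 1.07, adjusted p = 0.427). Cd8a had 1.164, 4.25 and 12.4 CPM in the biotin-positive group and 4.36, 10.9 and 25.9 CPM in the biotin-negative group, with 3.30 and 4.03 CPM in the Cd40-null pair. It was the only one of the 33 genes for which every biotin-negative library was above both Cd40-null libraries, and it did not pass the test between the biotin groups (log2 -1.17, SE 0.57, adjusted p = 0.253). Cd8b1, for the β chain that pairs with CD8α on conventional CD8 T cells, lies 35.9 kb from Cd8a on chromosome 6 and had the opposite sign. It had 0.657, 1.78 and 4.80 CPM in the biotin-positive group and 0.250, 0.557 and 1.15 CPM in the biotin-negative group, with 3.82 and 0.207 CPM in the Cd40-null pair (log2 1.71, SE 0.87, adjusted p = 0.282). The difference in sign between Cd8a and Cd8b1 was not tested.

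**Figure D3:**
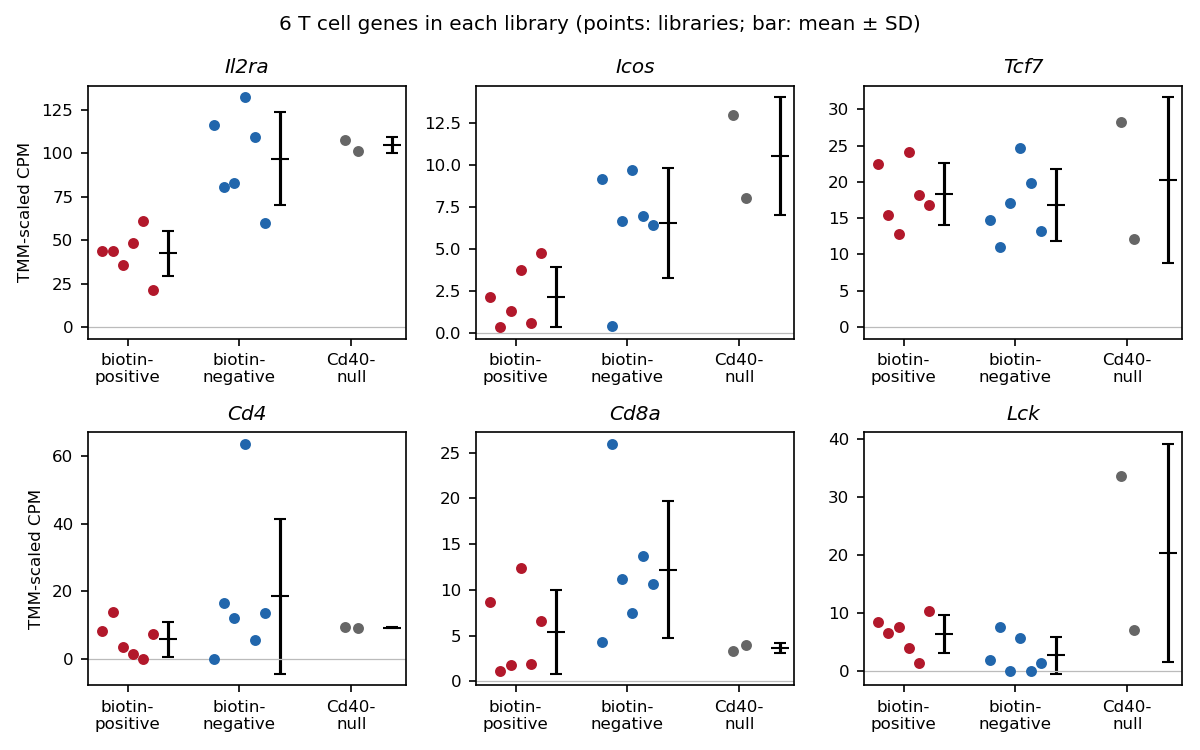
TMM-scaled CPM of Il2ra, Icos, Tcf7, Cd4, Cd8a and Lck, 1 point per library, with the mean and SD of each group as a bar. The biotin-positive Il2ra points lie at 21.4 to 60.8 CPM and the biotin-negative points at 59.9 to 132 CPM, while the Tcf7 points of the biotin groups cover the same range.

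Icos, an inducible costimulatory receptor of activated T cells, had 0.367, 1.73 and 4.80 CPM in the biotin-positive group and 0.436, 6.82 and 9.71 CPM in the biotin-negative group, against 13.0 and 8.05 CPM in the Cd40-null pair. Of the biotin-negative libraries, 5 of 6 were above every biotin-positive library and replicate 2 was low. Icos passed neither the test against biotin-negative (log2 -1.60, SE 0.68, adjusted p = 0.182) nor that against Cd40-null libraries (log2 -2.28, SE 0.86, adjusted p = 0.221, and log2 -1.90, adjusted p = 0.716 without Cd40-null replicate 1). Its neighbours on chromosome 1 are Ctla4, at 62.1 kb, and Cd28, a further 113.6 kb away. Cd28, the main costimulatory receptor of naive T cells, had 2.94, 1.84, 0, 0, 0 and 3.04 CPM in biotin-positive replicates 1 to 6. It was at 0 in 4 of 6 biotin-negative libraries, with at most 0.401 CPM in the others, and at 1.25 and 0.878 CPM in the Cd40-null pair (biotin-positive over biotin-negative log2 4.06, SE 1.80, adjusted p = 0.201). Ctla4, the inhibitory receptor that competes with CD28, had 1.98, 4.66, 0, 0, 0 and 0.0516 CPM in biotin-positive replicates 1 to 6 and at most 0.291 CPM in biotin-negative libraries, with 27.5 and 0 CPM in the Cd40-null pair. Ctla4 and Cd28 were thus read in a few biotin-positive libraries each, and their signs between the biotin groups were opposite to that of Icos (Ctla4 log2 3.97, SE 1.77, adjusted p = 0.203).

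The other receptors of that set were low. Cd27, a costimulatory receptor of the TNF receptor family, averaged 1.26 ± 0.715 CPM in the biotin-positive group and 0.421 ± 0.321 CPM in the biotin-negative group (SD, n = 6 each), with 3.5004 and 0.413 CPM in the Cd40-null pair. Pdcd1 (PD-1) averaged 1.10 ± 1.40 CPM in the biotin-positive group and 2.38 ± 2.22 CPM in the biotin-negative group, and Tigit averaged 1.18 ± 1.38 CPM in the biotin-positive group and 1.38 ± 0.907 CPM in the biotin-negative group (SD, n = 6 each). None of these genes passed the test. Cd40lg encodes CD40 ligand, which carried the sortase in the T cells transferred for the biotin groups and was wild type in those for the Cd40-null group. Cd40lg had 16 counts in biotin-positive replicate 3 (1.05 CPM) and 0 in the other 13 libraries. It did not pass the filter on low counts and was not tested. A count of 0 allows up to 0.0233 CPM over the biotin-negative group and 0.0678 CPM over the Cd40-null group, taken as 3 counts over each group's summed total.

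None of the 4 adhesion and lineage genes passed the test between the biotin groups. Cd5, a surface receptor that dampens T cell receptor signals and is also found on some B cells and DCs, had 83, 0, 1, 30, 10 and 0 counts in biotin-positive replicates 1 to 6. In the biotin-negative group it had 2 counts, both in replicate 6, and in the Cd40-null pair 300 and 19. The ratio of summed counts over summed library totals, biotin-positive to biotin-negative, was 68.2. Its 95% counting interval, 18.5 to 569, leaves out the spread between libraries. The fitted log2 fold change was 5.70 (SE 1.72, adjusted p = 0.0535), short of the threshold. Its neighbour Cd6, 50.3 kb away on chromosome 19 and a related receptor of the CD5 family, was read in 3 of 6 biotin-positive libraries at 0.425 to 3.94 CPM. Cd6 was also read in 5 of 6 biotin-negative libraries at up to 0.511 CPM, and in the Cd40-null pair it was at 32.7 and 0 CPM. Cd2, an adhesion receptor of T and NK cells, averaged 1.90 ± 2.11 CPM in the biotin-positive group and 0.184 ± 0.367 CPM in the biotin-negative group (SD, n = 6 each), with 12.6 and 0.516 CPM in the Cd40-null pair (biotin-positive over biotin-negative log2 3.36, SE 1.48, adjusted p = 0.197). Thy1, the pan-T surface protein of mice, stayed at or under 1.13 CPM in all 14 libraries.

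Each of the 9 signalling genes was at 0 in at least as many biotin-negative as biotin-positive libraries, and none of them passed the test between the biotin groups. Lck had 1.45, 7.12 and 10.4 CPM in the biotin-positive group and 0, 1.67 and 7.58 CPM in the biotin-negative group, with 33.6 and 7.12 CPM in the Cd40-null pair (log2 1.196, SE 0.88, adjusted p = 0.514). Lat had 1.84, 3.41 and 6.56 CPM in the biotin-positive group and 0, 0.429 and 4.72 CPM in the biotin-negative group, with 11.9 and 0.207 CPM in the Cd40-null pair (log2 1.64, SE 1.23, adjusted p = 0.521). Zap70 had 0, 1.70 and 4.96 CPM in the biotin-positive group and 0, 0.0485 and 1.38 CPM in the biotin-negative group, with 15.5 and 1.96 CPM in the Cd40-null pair (log2 2.87, SE 1.29, adjusted p = 0.21). The ranges of the biotin groups overlapped for these kinase and adaptor genes. Themis, which tunes receptor signals during thymic selection, had 35 counts in 3 biotin-positive libraries and 0 in all 6 biotin-negative libraries (adjusted p = 0.118). Itm2a, a membrane protein induced on T cell activation, was at 0 in both Cd40-null libraries and reached 3.45 CPM in biotin-positive replicate 1. Of the remaining members of this set, Ubash3a, Skap1, Trat1 and Sh2d1a, the mean levels were between 0.125 and 1.96 CPM in the biotin-positive group and between 0.172 and 1.33 CPM in biotin-negative libraries.

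Of the other transcription factors, Lef1, a partner of TCF-1, was the one with counts in every biotin-positive library. It had 0.329, 3.59 and 7.83 CPM in the biotin-positive group and 0, 0.649 and 1.57 CPM in the biotin-negative group, with 7.001 and 6.51 CPM in the Cd40-null pair. One biotin-positive library, replicate 3, lay within the biotin-negative range, and Lef1 did not pass the test (log2 2.35, SE 0.96, adjusted p = 0.163). Bcl11b, needed for commitment to the T lineage, averaged 0.906 ± 0.921 CPM in the biotin-positive group and 0.145 ± 0.182 CPM in the biotin-negative group (SD, n = 6 each). Gata3, a factor of type 2 helper T cells, was at 0 in 5 of 6 biotin-positive and 2 of 6 biotin-negative libraries.

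Over the whole list, 1 of the 32 genes tested was called between biotin-positive and biotin-negative libraries (Il2ra, lower), beside 7.75% of the 14217 genes tested (3.70% higher and 4.05% lower). A further 9 genes had an unadjusted p under 0.05 without passing the adjusted threshold. The share of all genes at an unadjusted p under 0.05 was not taken. Such counts, here and below, therefore have no background to be set against. Fitted log2 fold changes were above 0 for 24 of the 32 genes and below 0 for 8, with a median of 1.29 against -0.03 over all genes tested. Under a stricter filter (at least 5 CPM in at least 6 libraries) 6 of the genes were kept. Of these, 2 were above 0 and 4 below, with a median of -1.19 against 0.0018 over all genes kept. Such a filter can keep a gene through the groups where it is high. Icos was kept although it reached at most 4.80 CPM in the biotin-positive group. The stricter filter therefore cannot tell what the lean rested on. None of the 33 genes separated the biotin groups without overlap, whereas 5.02% of all tested genes did. The number of the 33 genes with at least 10 counts was 15, 20 and 26 (lowest, median, highest) in the biotin-positive group and 13, 13.5 and 15 in biotin-negative libraries, against 30 and 18 in the Cd40-null pair. Over all genes the order of the biotin groups was the other way, with 11524 to 12041 genes at that depth in the biotin-positive group and 12132 to 12814 in biotin-negative libraries.

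**Figure D4:**
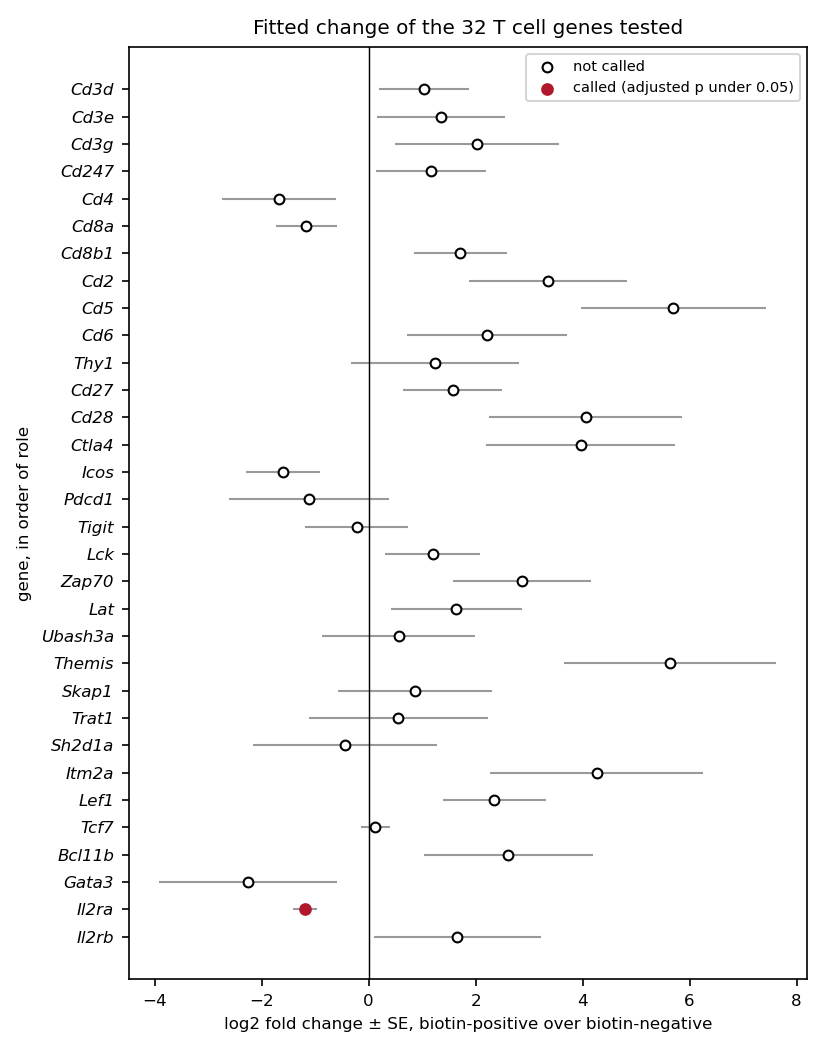
Fitted log2 fold change, biotin-positive over biotin-negative, of the 32 genes tested, in order of role, with 1 standard error to each side. Il2ra (filled) is the only gene with an adjusted p under 0.05, and the genes with large positive values, such as Cd5 at 5.70, have standard errors above 1.

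Against the Cd40-null group, 1 of the 32 genes was called in biotin-positive libraries (Il2ra, lower), beside 2.27% of all genes tested (1.22% higher and 1.05% lower). In biotin-negative libraries 0 were called by edgeR, beside 0.317% of all genes tested (0.274% higher and 0.0422% lower). Between biotin-negative and Cd40-null libraries, 8 genes had an unadjusted p under 0.05, DESeq2 called 1 (Cd5, lower, adjusted p = 0.0133) and limma voom called 0. The median log2 fold change of the 32 genes over Cd40-null libraries was -0.80 in the biotin-positive group and -2.21 in biotin-negative libraries. Over all genes tested these medians were 0.04 and 0.06. Without Cd40-null replicate 1 the median of the 32 genes was 0.65 for the biotin-positive group and 0.41 for the biotin-negative group. Over all genes tested it was then 0.11 and 0.14, so the background had moved up as well. Every biotin-positive library was below both Cd40-null libraries for Icos, Sh2d1a and Il2ra, 3 of 33 genes, while 15.9% of all tested genes did not overlap between these groups. Every biotin-negative library was below both Cd40-null libraries for Cd3e, Cd5, Cd28, Zap70, Sh2d1a and Lef1 and above both for Cd8a, while 10.7% of all tested genes did not overlap. Set against Cd40-null replicate 2 alone, each comparison kept the same genes below in every library as against the pair. Those above it in every library were then Cd8b1, Lat and Tcf7 in the biotin-positive group (32.2% of all tested genes did not overlap) and Cd3d, Cd8a and Cd8b1 in the biotin-negative group (28.6%).

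The Cd40-null libraries differed from each other in these genes more than in others. Replicate 1 was above replicate 2 for 29 of the 33 genes (87.9%), as against 48.1% of all genes tested. It was at least 4-fold above for 21 of 33 (63.6%), as against 9.14%. The 4 exceptions to the first count were Cd8a and Tigit, higher in replicate 2, and Cd40lg and Itm2a, at 0 in both. Cd6 had 813 and 0 counts, Ctla4 had 684 and 0 counts and Il2rb had 29.9 and 0 CPM in replicates 1 and 2, so that whole transcripts were present in one library and unread in the other. Foxp3, the factor of regulatory T cells and not one of the 33, was at 38.2 and 5.21 CPM in replicates 1 and 2, at 0 to 15.8 CPM in the biotin-positive group and at 0 to 2.62 CPM in biotin-negative libraries. Markers of other cells moved in part with replicate 1. The 9 B cell genes read here summed to 76.9 and 9.76 CPM in Cd40-null replicates 1 and 2, to 8.55 to 84.1 CPM in the biotin-positive group and to 12.8 to 49.9 CPM in biotin-negative libraries. The 12 NK cell genes summed to 1.85 and 2.07 CPM in the Cd40-null pair, with Ncr1 and Klrb1c at 0 in both. They summed to 1.06 to 5.36 CPM in the biotin-positive group and to 0.573 to 10.4 CPM in biotin-negative libraries. The 15 cell division genes summed to 216 and 138 CPM in the Cd40-null pair, against 94.8 to 162 CPM and 91.5 to 197 CPM in these biotin groups. The 12 DC genes summed to 9957 and 12409 CPM in the Cd40-null pair. Their sums were higher in the biotin-positive group (13348 to 15023 CPM) and in biotin-negative libraries (12473 to 14601 CPM). The part of these cells in the T cell values was not tested.

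**Figure D5:**
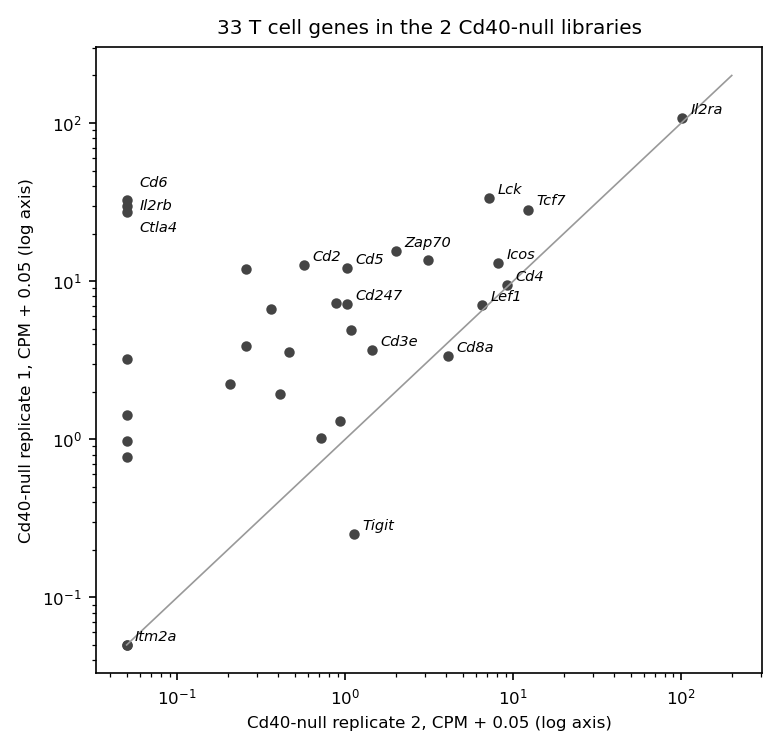
Levels of the 33 genes in Cd40-null replicate 1 (vertical) against Cd40-null replicate 2 (horizontal), as CPM + 0.05 on log axes, with the line of equal levels. All but 4 points lie above the line, Cd6, Il2rb and Ctla4 stand at the left edge because replicate 2 was at 0, and Il2ra lies close to the line.

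A second list held 36 other genes used in T cells. Of these, 31 were in the table, and Trac, Trbc1, Trbc2, Trdc and Izumo1r were not analysed here. Between the biotin groups edgeR called 0 of the 31 higher and 4 lower, Rasgrp1, Il7r, Fyb and Ly9, beside 7.75% of all genes tested called in either direction, and the median log2 fold change was 0.33. DESeq2 called 6, adding Gimap3 (higher) and Ptpn22 (lower), and limma voom called 4. Rasgrp1, a Ras activator downstream of antigen receptors, averaged 23.6 ± 6.44 CPM in the biotin-positive group and 76.2 ± 18.5 CPM in the biotin-negative group (SD, n = 6 each), with 68.6 ± 9.47 CPM in Cd40-null libraries (SD, n = 2). It fell against both groups, by 1.69 (SE 0.20, adjusted p = 4.81e-05) and by 1.54 (adjusted p = 0.00333) on the log2 scale. Against Cd40-null libraries the adjusted p was 0.0303 without Cd40-null replicate 1 and 0.0716 without replicate 2, so the second call was lost there. Il7r, the interleukin-7 receptor chain, averaged 282 ± 49.6 CPM in the biotin-positive group, 485 ± 79.8 CPM in biotin-negative and 141 ± 37.3 CPM in Cd40-null libraries (SD, n = 6, 6 and 2). It was lower in biotin-positive than in biotin-negative libraries (log2 -0.78, adjusted p = 0.00194) and higher in both than in Cd40-null libraries (log2 1.00, adjusted p = 0.0174, and log2 1.78, adjusted p = 0.000879). Those calls against the Cd40-null group held without its replicate 1 (adjusted p = 0.0479 for biotin-positive and 0.00909 for biotin-negative libraries) and were lost without its replicate 2 (adjusted p = 0.271 for biotin-positive and 0.0583 for biotin-negative libraries). Fyb, the adaptor ADAP, averaged 84.8 ± 14.1 CPM in the biotin-positive group and 124 ± 17.2 CPM in the biotin-negative group (SD, n = 6 each; log2 -0.55, adjusted p = 0.0127). Ly9, a receptor of the SLAM family, averaged 2.36 ± 2.14 CPM in the biotin-positive group and 12.4 ± 7.61 CPM in the biotin-negative group (SD, n = 6 each; log2 -2.39, adjusted p = 0.0471). The Ly9 call was lost on leaving out any 1 biotin-sorted library other than biotin-positive replicates 2 and 3 and biotin-negative replicate 5, with adjusted p of 0.0536 to 0.126. None of these 4 genes encodes a chain of the CD3 complex. Fyb had no call in biotin-positive against Cd40-null libraries, and neither had Ly9.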

How the data were processed

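RNA was measured by Smart-seq2 in 14 libraries, grouped by their labels. Per the submitters' processing notes, Bowtie2 2.1.0, RSEM 1.2.8, DESeq2 1.16.0 and the mouse build mm10 were used, with no role stated; the gene annotation and strand setting are not given in the sources used here. Expected counts from RSEM, as deposited, cover 23420 gene symbols. The authors also deposited a normalized signal for 10321 genes, in which each library's counts are divided by 1 factor. It holds 9 of the 33 genes and was used only for that check.

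Expected counts, rounded to whole numbers, were tested in R 4.3.3 with edgeR 4.0.16 (TMM scaling, filterByExpr by group at min.count 10, glmQLFit with robust=TRUE on all libraries, two-sided glmQLFTest). This kept 14217 genes, over which p-values were adjusted (Benjamini-Hochberg), with a call at 0.05. Adjusted p-values are from this test unless another is named. The SE of a log2 fold change is its size over the square root of F. Alternatives were other scaling, no filter or a stricter filter, limma 3.58.1 (voom), DESeq2 1.42.0, only the groups compared, a replicate block and each replicate left out.

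The 33 genes and all lists were chosen with earlier results of these data known. All 33 could be named, with called genes and up to 4 genes of smallest p from other lists; Flt3, Zbtb46, Ncr1, Klrb1c, Tnfsf8, Gimap3 and Ptpn22 were named after their values were seen. Positions are from GENCODE M21 (GRCm38). Counting intervals and limits at 0 cover counting error only, since reads carry no molecular identifiers. The pipeline was tested on simulated data.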

Additional observations from a re-analysis of the deposited data

Results flagged for a closer look

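The 32 genes tested, in the biotin-positive and in the biotin-negative group, gave 64 groups of 6 libraries. Of these, 9 held 1 library far from the others by Dixon's criterion on log2 CPM. Chance meets it in about 1 in 20 groups only where values are normally distributed. Here, libraries tied at 0 let any single library with counts meet it, so the 9 cannot be set against that rate. In 3 of the 9 groups 1 library was low. Cd3g was at 0 in biotin-positive replicate 5 (log2 CPM -3.36), while the other 5 libraries had 1.12 CPM or more. Cd247 was at 0 in biotin-negative replicate 2 (log2 CPM -3.36), and the others had 0.971 CPM or more. Icos had 11 counts in biotin-negative replicate 2 (log2 CPM -0.91), and the others had 6.41 CPM or more. In the other 6 groups 1 library was high among libraries at or near 0. In biotin-negative replicate 6, Sh2d1a had 18 counts (log2 CPM 0.17), Cd28 had 7 counts (log2 CPM -1.01) and Cd5 had 2 counts (log2 CPM -2.24). Skap1 had 80 counts in biotin-negative replicate 1 (log2 CPM 1.56) and Itm2a had 5 in biotin-negative replicate 5 (log2 CPM -1.503). Gata3 had 22 counts in biotin-positive replicate 5 (log2 CPM -0.36) and 0 in the other 5 biotin-positive libraries.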

How the results depend on the processing

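Il2ra stayed lower in biotin-positive than in biotin-negative libraries in all 19 alternatives (log2 -1.32 to -1.06, adjusted p 7.03e-06 to 0.00924). Between the biotin groups the number of genes called was 1, and 2 with DESeq2 (Cd5, higher, adjusted p = 0.00526). Leaving out 1 library gave 1 to 2. Cd5 passed without biotin-positive replicate 2 (adjusted p = 0.0414) or 6 (adjusted p = 0.0402), Zap70 without biotin-negative replicate 5 (adjusted p = 0.0352) and Skap1 without biotin-negative replicate 1. For biotin-positive against Cd40-null libraries the number was 1, 2 with limma voom (Il2ra and Sh2d1a, both lower), and 0 to 1 with 1 library left out. For biotin-negative against Cd40-null libraries it was 0, 1 with DESeq2 and 0 with any library left out. Leaving out 1 Cd40-null library leaves 1, whose spread is assumed to equal that of the other groups. With libraries left out, the log2 fold change of Cd6 ran from -5.34 to 7.33 in biotin-positive over Cd40-null libraries. In biotin-negative over Cd40-null libraries, that of Ctla4 ran from -8.79 to 3.56 and that of Cd6 from -7.26 to 5.12. The positive ends came without Cd40-null replicate 1, and the cause was not tested. The stricter filter kept 6 of the 33 genes. With group means removed, same-numbered biotin-positive and biotin-negative libraries had correlations between -0.0226 and 0.0132. Only replicate 3 matched its own number best. The labels do not say whether a shared number marks a shared source, and values this near 0 cannot settle it. A replicate block gave 1, 1 and 0 calls in the 3 comparisons. Depth limits genes at a few counts, where 1 library can set a group's mean.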

Other observations

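Of 18 helper and effector T cell genes, 12 were tested and 0 were called in any of the 3 comparisons by edgeR, with at most 1 gene at an unadjusted p under 0.05 in each. DESeq2 called 0 of them in each, and limma voom called 1 between the biotin groups (Tnfsf8). Foxp3 had the smallest p between the biotin groups (log2 3.28, SE 1.44, adjusted p = 0.197), with 5.03 ± 6.15 CPM in the biotin-positive group and 0.503 ± 1.04 CPM in the biotin-negative group (SD, n = 6 each). Of 15 cell division genes, 0 were called between the biotin groups by edgeR, with 2 at an unadjusted p under 0.05. DESeq2 called 1 (Top2a) and limma voom 0. Mki67, a marker of cycling cells, averaged 19.1 ± 9.98 CPM in the biotin-positive group, 24.6 ± 11.1 CPM in biotin-negative and 13.5 ± 8.83 CPM in Cd40-null libraries (SD, n = 6, 6 and 2). The 4 NK cell genes tested had 0 calls between the biotin groups by any of these tools, with 0 at an unadjusted p under 0.05, and so had the 8 B cell genes tested.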
